A study of Mus musculus with 4 samples.

Results

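Among 15670 droplet barcodes of sorted mouse bone and marrow cells, 62 held at least 2 UMIs of Lepr, at least 2 of Adipoq and at least 10 of Cxcl12 together with fewer than 2 UMIs each of Cxcl14 and Grem1, and they are called members here. A UMI is a molecular identifier that marks 1 captured transcript. The members were chosen by their own UMIs of these 5 genes, so the levels of those genes are a description. The young mouse gave 50 members of 10063 kept barcodes (0.497%, exact Clopper-Pearson 95% interval 0.369 to 0.655%). The old mouse gave 12 of 5607 (0.214%, interval 0.111 to 0.374%). A barcode was kept with at least 200 genes and at most 20% mitochondrial UMIs.

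The cells came from the femurs and tibiae of 1 young (6 months) and 1 old (24 months) INK-ATTAC mouse, both untreated. This strain carries a transgene in which the p16Ink4a promoter drives a caspase that is inert until a drug joins its subunits, and neither mouse received that drug. Bone and marrow were digested, depleted of lineage-positive cells and sorted for live CD45- cells, and RNA was read together with 1 antibody against CD24 on the same barcodes. The deposited counts held 82675434 RNA UMIs over 11371 young barcodes and 68580402 over 6729 old ones, with medians of 6385 and 9711 UMIs per kept barcode. With 1 mouse per age, age, animal and library cannot be told apart and no test between ages was possible. Every interval here covers counting error only, and it is too narrow for a gene whose UMIs came from few cells.

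Marrow stromal cells that express the leptin receptor Lepr and the adipokine Adipoq wrap the sinusoids and are known for making the chemokine Cxcl12 and the cytokine Kitl, which retain and maintain blood stem cells. They are also known as a source of marrow adipocytes and of osteoblasts in the adult. Cxcl14 is a secreted chemokine, and Grem1 is a secreted antagonist of BMP ligands.

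The limit on Cxcl14 set aside nearly all barcodes of this kind. Of 3907 kept barcodes past the Lepr, Adipoq and Cxcl12 limits, 3806 (97.4%) held at least 2 Cxcl14 UMIs, and these 2264 young and 1542 old barcodes are called the Cxcl14 arm. Another 33 young and 6 old barcodes had at least 2 Grem1 and under 2 Cxcl14 UMIs, the Grem1 arm. Members were the remaining 2.13% (interval 1.59 to 2.80%) in the young and 0.769% (0.398 to 1.34%) in the old library. The data therefore go against reading the members as the Lepr and Adipoq stroma of these libraries. They are its few barcodes with under 2 UMIs each of Cxcl14 and Grem1, and they are named here by their rule.

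The limits cut through a continuous range. Among young members 12 had no Cxcl14 UMI and 38 had 1, while 47 barcodes just outside had 2 and 39 had 3. Among old members 4 had none and 8 had 1, against 13 with 2 and 6 with 3. The bulk of members thus missed the Cxcl14 arm by a single UMI. At the Adipoq limit stood 10 young and 6 old members with 2 UMIs, and 40 and 26 barcodes lay just outside with 1. At the Lepr limit these numbers were 7 and 2 inside and 5 in each library outside. For Cxcl12, 1 young and 2 old members had 10 to 14 UMIs and no barcode lay just outside with 5 to 9.

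Members were shallow barcodes. Their depth had a median of 2945 UMIs in the young library (lowest 737, highest 11225) and of 2198.5 in the old (1325 to 5891). In the Cxcl14 arm the medians were 6136 and 9140. Of young barcodes past the 3 limits, 14 of 37 with up to 2000 UMIs were members (37.8%, interval 22.5 to 55.2%), but 1 of 673 above 8000 (0.149%, interval 0.00376 to 0.825%). In the old library these counts were 5 of 17 (29.4%, interval 10.3 to 56.0%) and 0 of 995, which allows a share of up to 0.370% by the same interval. Depth thus moved with membership, and its part in the results below was not tested beyond the comparisons given with shallow barcodes. When each barcode was first thinned to 5000 UMIs and shallower ones were left out, 21 young and 8 old barcodes met the rule.

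**Figure D1:**
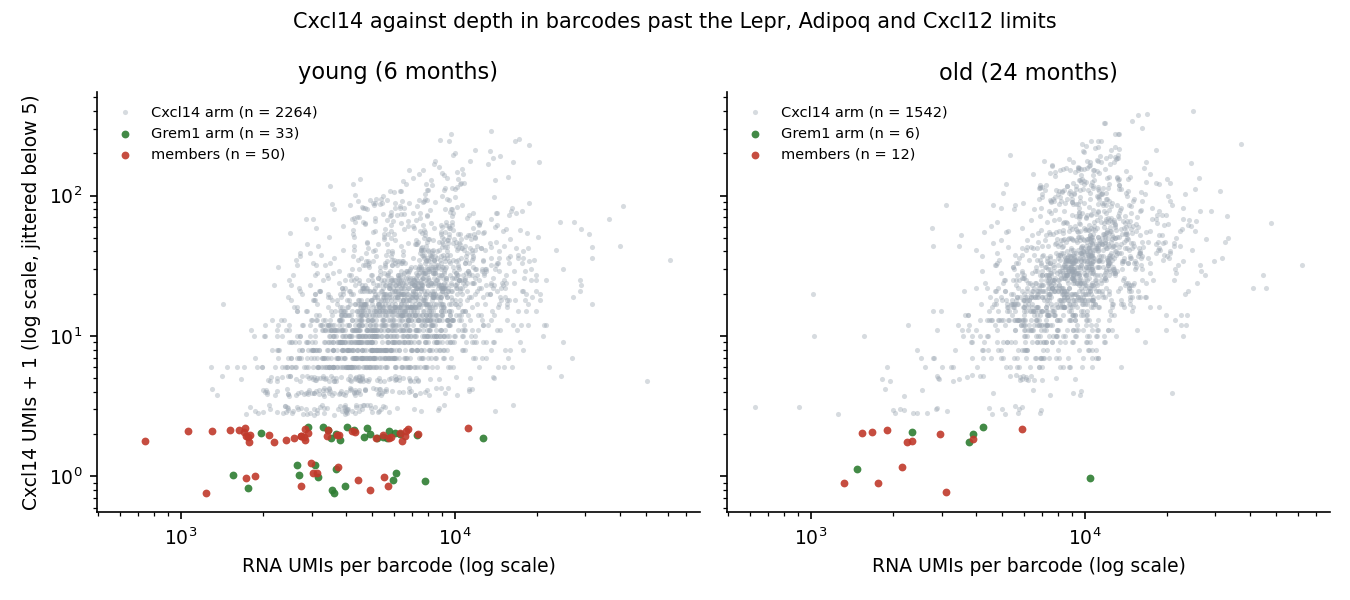
Cxcl14 UMIs of each kept barcode past the Lepr, Adipoq and Cxcl12 limits against its RNA UMIs, in the young and the old library. Members lie at 0 or 1 Cxcl14 UMI and mostly at the shallow end, with medians of 2945 and 2198.5 UMIs against 6136 and 9140 in the Cxcl14 arm.

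Several young members carried many transcripts of another cell type. In 4 of 50 young members the 8 neutrophil markers summed to 66, 67, 182 and 1608 UMIs, and these were also the 4 members with any UMI of the leukocyte gene Ptprc. A further 2 had 58 and 229 UMIs of the osteocalcin genes Bglap and Bglap2, which mature osteoblasts make, and 1 had 82 UMIs of Prg4, the joint lubricant. Together they were 7 of 50 young members (14%, interval 5.82 to 26.7%) and 0 of 12 old ones (up to 26.5% by the same interval), against 59 of 2264 (2.61%) and 40 of 1542 (2.59%) in the Cxcl14 arm. The minimum of 50 UMIs was chosen after the values were seen, and results that turn on these 7 mixed members are given with and without them. Scrublet, which scores barcodes against simulated doublets, called 2 young and 0 old members. Of 25 barcode sequences found in both libraries, 2 belonged to old members.

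Beyond neutrophil markers, of which 7 of 8 genes in young and 3 in old members had a UMI and of whose young UMIs 1 member held 83.3%, the median young member had 0 UMIs of every other cell type list named here except the B-lineage list. Of endothelial markers, 2 of 9 genes in young and 0 in old members had a UMI, and the defining genes Pecam1 and Cdh5 were at 0. Of megakaryocyte markers, 3 of 8 genes in young and 0 in old members had one, and of macrophage markers 3 of 8 genes in young and 1 in old members, with 83.8% of the young UMIs in 1 member. The B-lineage list, which includes Ebf1, had UMIs for 2 of 8 genes in young and 2 in old members, and Cd79a, Cd79b and Ms4a1 were at 0. Of 5 leukocyte markers, 5 had UMIs in young and 1 in old members. Counts for the other lists were 6 of 10 genes in young and 4 in old members for pericytes, 5 of 8 genes in young and 4 in old members for erythroid cells, 4 of 8 genes in young and 3 in old members for chondrocytes, 3 of 6 genes in young and 0 in old members for tendon, 6 of 9 genes in young and 5 in old members for fibroblasts and 2 of 6 genes in young and 1 in old members for Schwann cells. The highest sum in 1 member, in young and old, was 4 and 8 UMIs for pericyte, 36 and 3 for erythroid, 18 and 2 for chondrocyte, 9 and 0 for tendon, 60 and 11 for fibroblast and 7 and 3 for Schwann markers. All 11 old fibroblast-marker UMIs came from 1 member.

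Cxcl12, the chemokine that retains blood stem cells, stood at 23299 CPM (UMIs per 1000000 of the group's summed UMIs; exact Poisson 95% interval 22599.9 to 24014) in young and 15982 (14601 to 17459) in old members, against 26361 and 23256 in the Cxcl14 arm. Lepr was at 1840.4 (1648 to 2049) and 2339 (1830.0 to 2945) CPM, against 1514 and 1607. Adipoq was at 1597 (1417 to 1792) and 1137 (792 to 1581) CPM, against 1428 and 2198. The rule fixed a minimum for these 3 genes in members and arm alike, so nothing is read from their height over other cells.

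Kitl, Esm1 and Kng1 mark the same stroma and were not used by the rule. Kitl, the ligand of the receptor Kit, was at 1629.8 CPM (1449 to 1827) in young and 2144 (1658 to 2728) in old members, and both intervals of the ratio to the arm (1724 and 1952 CPM) included equality. Esm1, a secreted proteoglycan, was at 765 (643 to 904) CPM in young members, below the 940.3 of the arm, and at 1429 (1039 to 1919) in old ones, not distinguishable from 1513. Kng1, the kinin precursor, was at 255 (187 to 340.1) CPM in young members, below 417, and rested on 8 UMIs in old ones. Members thus carried the stromal markers that the rule left free, at levels close to or under the arm.

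Single members were less uniform than the sums. No Kitl UMI was found in 6 of 50 young and 3 of 12 old members, against 5 of 158 and 3 of 35 barcodes of the Cxcl14 arm with at most 3000 UMIs, a depth chosen after the values were seen. After each barcode was thinned to 2000 UMIs, 83.3% and 85.7% of the 36 young and 7 old members deep enough held Kitl, against 94.4% and 94.1% of the arm and 0 of 41 and 0 of 40 megakaryocyte-like barcodes. The latter should lack Kitl, had median depths of 16625 and 15189 UMIs before thinning, and at 0 allow shares of up to 7.32% and 7.50% (3 barcodes). Thinning removed most UMIs of these deep barcodes, so their 0 does not bound the RNA from outside the cell in members. Without thinning, megakaryocyte-like barcodes had a median of 0 Kitl UMIs and at most 1 (young) and 4 (old). Without thinning, 44 of 50 young and 9 of 12 old members held Kitl. One young member with 6724 UMIs had 10 Cxcl12 UMIs and none of Kitl, Kng1 or Esm1, and it was the one with 82 Prg4 UMIs.

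**Figure D2:**
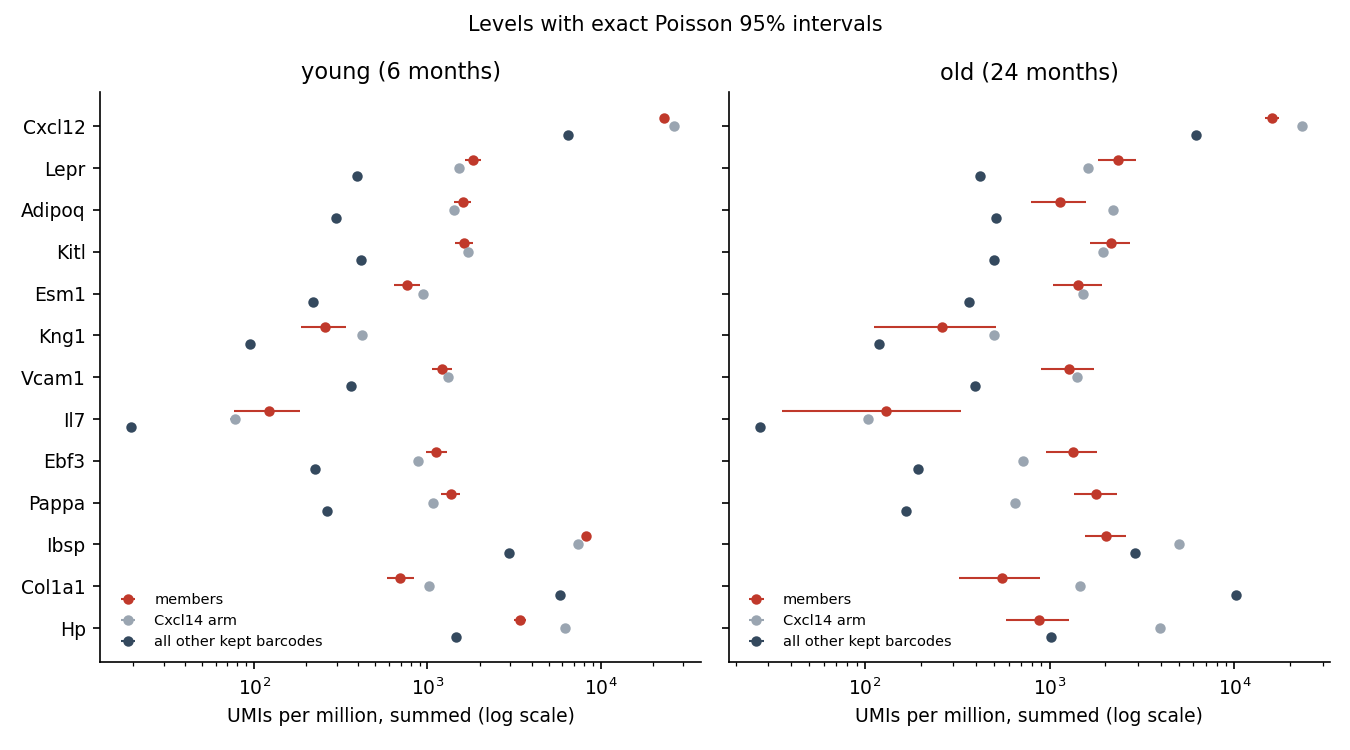
Summed CPM (log scale) of 13 genes in members, the Cxcl14 arm and all other kept barcodes of the young and old library, with exact Poisson 95% intervals. Kitl of members (1629.8 and 2144 CPM) lay beside the Cxcl14 arm and above the other barcodes, whereas Col1a1 (698 and 552 CPM) lay below both.

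Against all other kept barcodes, 21 of 8819 genes were at least 4-fold higher in members in both libraries (0.238% of genes tested) and 205 at least 4-fold lower (2.32%). Differences are log2 of CPM with 5 CPM added, for genes with a UMI in at least 10% of either group, and since transcripts of the same cells chose the members they carry no test. The 15 genes with the highest difference in the lower of both libraries were Vezt, Pappa, Ebf3, Speg, Lepr, Gdpd2, Gm4951, Fgd6, Podnl1, Igfbp3, Rspo3, Bves, Ccdc152, Il7 and Rbpms. TMM factors, which scale to the middle of the genes, lowered the log2 differences by 0.24 for young and 0.93 for old members. Under TMM 3 genes passed upward and 307 downward. All 15 genes stayed above 0, but they were picked for differences far above these shifts, so this is no check. Lepr is among the 21 and the 15 because the rule required it.

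Pappa, a protease that frees IGF from its binding proteins, was at 1369 and 1787 CPM in young and old members, 262 and 167 in other barcodes and 1079.9 and 648 in the Cxcl14 arm. It stayed higher against shallow barcodes of the arm, by 0.27 and 1.22 on the log2 scale (plain intervals 0.04 to 0.50 and 0.67 to 1.78). Ebf3, a transcription factor of marrow niche cells, was at 1125 and 1332 CPM against 224 and 193 in other barcodes and 881 and 714 in the arm, and did not differ beyond counting error from the shallow arm (1166 and 1260.1). Vezt, a protein of cell junctions, was at 194 and 357 CPM against 85.6 and 88.6 in the arm. Rspo3, a secreted enhancer of WNT signals, and Igfbp3, an IGF binding protein, were named by the same rule. Rspo3 was at 188 and 227 CPM against 39.2 and 48.0 in other barcodes and 135 and 167 in the arm. Igfbp3 was at 477 and 585 CPM, above the other barcodes by 2.20 and 2.13 on the log2 scale. Over the arm the differences were 0.46 and 0.44 for Rspo3 and 0.35 and 0.36 for Igfbp3. Most of their height over other barcodes was thus shared with the arm. Il7, a growth factor of early lymphocytes, rested on 22 and 4 UMIs.

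The 8 lowest genes were Mki67, Mfap5, Car1, Chad, Cilp, Hist1h1b, Fmod and Itgbl1. Mki67, a proliferation marker, had 0 UMIs in members of both libraries and 157 and 221 CPM in the others, where 3 UMIs over the members, the floor used here, correspond to 16.6 CPM in the young and 97.5 in the old. The tendon and cartilage genes Fmod, Chad and Cilp had 2, 2 and 1 UMIs in young members and 0 in old ones. Beside 2.32% of all genes tested, 7 of the 10 cycling genes tested (of 20 listed) passed the fold downward. These genes were low in the Cxcl14 arm too, so the low levels were not particular to members. There Mki67 was at 20.3 and 29.3 CPM, Fmod at 49.7 and 25.0, Chad at 49.5 and 24.8 and Cilp at 37.6 and 34.9. The cycling genes summed to 127 and 32.5 CPM in members, 222 and 221 in the arm and 1245 and 1277 in the others.

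Of blood-forming niche factors, 15 of 18 were tested, Il7 was past the fold upward and Ptn downward, and the median difference from other barcodes was 0.91 and 1.25, beside 0.03 and -0.17 over all genes tested. This list holds Cxcl12, which the rule used. Vcam1, an adhesion molecule for blood cells, was at 1219.5 and 1267 CPM in members and 1311 and 1405 in the Cxcl14 arm. Csf1, a growth factor of macrophages and osteoclast precursors, was at 211 CPM (149 to 289) in young members, below the 423 of the arm and the 434 of its shallow barcodes, and rested on 14 UMIs in old ones (455 CPM). Il34, which binds the same receptor, was at 244 and 129.9 CPM against 301 and 194, within counting error.

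All 20 stromal transcription factors were tested, of which Ebf3 was past the fold, with medians of 0.47 and 1.02 that TMM brought to 0.26 and 0.16. Foxc1, a factor of the niche cells, was at 554 and 845 CPM against 215 and 206 in other barcodes. Runx1 was at 1053 and 1624 against 465 and 399, and Ebf1, which acts in stroma and in B cells, at 698 and 1559 against 661 and 636, where TMM turned the young difference from 0.08 to -0.16. Runx2, which drives commitment to bone, was at 410.2 and 585 CPM, above the 263 and 263 of the Cxcl14 arm by 0.63 and 1.14 on the log2 scale (plain intervals 0.29 to 0.97 and 0.40 to 1.82). Against the shallow arm (365 and 395 CPM) its intervals included equality.

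Over all genes tested 2.32% passed downward. Of osteoblast genes, 19 of 25 were tested, none passed upward and Col1a1, Postn and Tnn passed downward, with medians of 0.07 and -1.50. The old median rested in part on 4 tested genes at 0 UMIs in old members, and was -0.46 with zeros set at the floor. Over the 24 with any UMI in members, TMM moved the young median from -0.10 to -0.34. Ibsp, a mineral-binding matrix protein, had UMIs in 48 of 50 young and 10 of 12 old members. Its level was 8215 CPM (7802 to 8645) in young members, above the 7438 of the Cxcl14 arm by 0.14 on the log2 scale and within counting error of the 8607 of its shallow barcodes, but 2014 (1544 to 2582) in old members against 4984 and 4518. Spp1, osteopontin, was at 2766 and 1007 CPM against 3974 and 2949 in the arm. Col1a1, a chain of type I collagen, was at 698 and 552 CPM, and young members without the 7 mixed ones were at 424, against 5784 and 10199.6 in other barcodes. All 137 Bglap UMIs of young members came from 2 members, both mixed, and old members had none. Of 34 of 35 matrix genes tested none passed upward and Col1a1, Col3a1, Col14a1, Fmod, Lum and Postn passed downward, beside the same 2.32%. Fibronectin Fn1 was at 754 CPM in young members and at 195 without the mixed ones, against 233 in the arm.

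Of adipocyte genes, 15 of 30 were tested and none passed the fold, with medians of 0.80 and 0.75. Over the 19 with any UMI in members, TMM turned the old median from 0.71 to -0.10. Lpl, which frees fatty acids from lipoproteins, was at 1408 and 1657 CPM, below the 1740.0 and 2566 of the Cxcl14 arm. Apoe, a lipid carrier, was at 3947 and 2534 against 4641 and 5515, lower by plain intervals of the log2 ratio of -0.34 to -0.13 and -1.46 to -0.80. Cebpa, an early adipocyte factor, was at 161 and 195 against 159 and 171, within counting error. Fabp4, a fatty acid carrier of fat cells, had 0 UMIs in all members against 52.5 and 131 CPM in the arm, both above the floors of 16.6 and 97.5. Plin1 and Cfd, genes of mature fat cells, had 0 UMIs in members and under their floors in the arm.

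Genes of secreted plasma proteins were also read in members, with 22 of 28 tested, none past the fold and medians of 1.25 and 0.26. Over the 23 with any UMI in members, TMM turned the old median from 0.16 to -0.71. Hp, haptoglobin, was at 3409 and 877 CPM, lower than the 6260.4 and 3966 of the Cxcl14 arm with log2 differences of -0.88 and -2.17, and lower than its shallow barcodes with -0.77 and -1.17. Gas6, a ligand of receptor kinases, was at 2567 and 2111 against 2886 and 2480.1, and complement C4b at 876 and 909.6 against 752 and 899. Of BMP or WNT genes 21 of 34 were tested, with Rspo3 upward and Sfrp2 downward, and the ligand Bmp6 and the antagonist Chrdl1 were at 272 and 325 and at 609.8 and 455 CPM, within counting error of the arm.

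Among receptors, 34 of 41 were tested, with Ackr3, Cd24a and Thy1 downward, and Lepr, which the rule required, upward. In the IGF axis (8 of 9) Igfbp3 passed upward and Igfbp6 downward, in vascular signals (14 of 20) Sema3c downward, in secreted inflammatory genes (14 of 32) Ccl7 and Mmp2 downward and in immediate-early genes (21 of 21) Nr4a2 downward. No gene passed in the osteoclast (3 of 4), arrest or survival (22 of 25), iron or lipid (16 of 16), heat shock or oxidative stress (21 of 22), interferon (21 of 28) and antigen presentation lists (14 of 19). Over all genes tested 0.238% passed upward and 2.32% downward, and over the 355 listed genes tested 1.41% and 9.58%. The inflammatory cytokine Il6 had 0 UMIs in members, which allows levels up to the floors of 16.6 (young) and 97.5 CPM (old). Cdkn2a, whose promoter the transgene uses, had 1 UMI in young and 0 in old members, too few under these floors to read any difference.

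Against the Cxcl14 arm alone, at 2-fold in both libraries, 57 of 8578 genes were higher (0.664%) and 283 lower (3.3%). The 8 highest were Ankmy1, Phkg1, Tmem246, Zbtb18, Mrgpre, Sap130, 4933439C10Rik and Katnal1, each on 5 to 12 UMIs in young and 1 to 3 in old members. Of the 8 lowest, Cxcl14 was set by the rule, and Fabp4, Kit, Adgre5, Abcd2, Tpst1, Pip4k2c and Xpr1 had 0 UMIs in members of both libraries. In the young arm the genes at 0 stood at 24.9 to 52.5 CPM, above the members' floor of 16.6. In the old arm Fabp4 was at 131 CPM, but the others were at 26.1 to 78.3. That is under the old floor of 97.5, so their 0 in old members shows no difference. No listed gene was among those higher. Against the Grem1 arm the 8 highest were S100a8, Adss, Dnajc11, Gm4117, Zbtb18, Zdhhc8, Bves and Cacul1, all at 0 UMIs in that arm, and S100a8, a neutrophil gene, had 715 UMIs in 5 young members. The 8 lowest were Fabp4, Gm16310, Mis18a, Rad51ap2, Trim30a, Grem1, Cers4 and LTO1, of which Grem1 was set by the rule and the others had 0 UMIs in members. Of these others, Fabp4 and Cers4 were at 114 CPM in the old Grem1 arm and the rest at 38.1 to 76.3, under the floor of old members.

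The make-up of the RNA set members apart from the Cxcl14 arm, most in the old library. Malat1, a nuclear non-coding RNA, took a median of 5.63% and 10.0% of UMIs in young and old members and 4.99% and 4.94% in the Cxcl14 arm. Cytosolic ribosomal protein genes took 7.34% and 2.01% against 7.91% and 7.62%, and mitochondrial genes 3.37% and 6.63% against 2.70% and 2.67%. Old members were thus high in Malat1 and mitochondrial RNA and low in ribosomal protein RNA. In the 158 young and 35 old shallow barcodes of the arm the medians were 3.65% and 7.65% for Malat1, 7.20% and 5.86% for ribosomal protein genes and 2.81% and 5.13% for mitochondrial genes, so the old shallow barcodes lay between the arm and the members. The Grem1 arm (33 young and 6 old barcodes) had medians of 6.18% and 8.67% for Malat1. Its medians were 7.44% and 1.65% for ribosomal protein genes and 2.83% and 7.91% for mitochondrial genes. The make-up of old members was thus not particular to them.

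**Figure D3:**
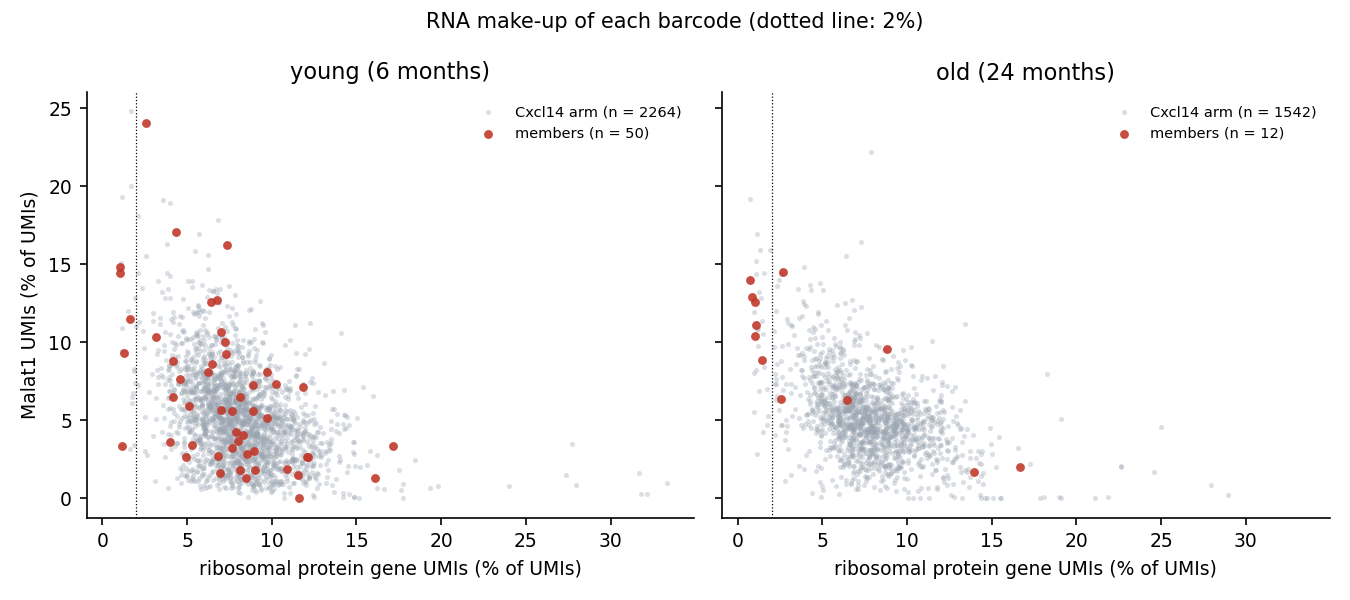
Malat1 against cytosolic ribosomal protein genes, each as percent of a barcode's UMIs, with members in red, the Cxcl14 arm in grey and a dotted line at 2% ribosomal UMIs. Left of the line lie 6 of 12 old members but 5 of 50 young ones.

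Under 2% ribosomal protein UMIs, a limit set after the values were seen, were 6 of 12 old members (50%, interval 21.1 to 78.9%) and 5 of 50 young ones (10%, 3.33 to 21.8%). In the Cxcl14 arm these were 1.62% and 0.751%, and among its shallow barcodes 9 of 35 (25.7%) old and 9 of 158 (5.70%) young. Other nuclear RNAs, named after their values were seen, were Kcnq1ot1 at 288 and 455 CPM against 139 and 139 in the arm and Neat1 at 460.1 and 812 against 416 and 396. Over 10% mitochondrial UMIs were found in 5 of 50 young and 4 of 12 old members. Another 4 old barcodes met the UMI limits but exceeded 20% mitochondrial UMIs and were not kept.

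Between the ages, 30784 UMIs of old members stood against 180394 of young ones, so that 1 UMI was worth 32.5 and 5.54 CPM. Of 5985 genes tested, 1365 were at least 2-fold higher (22.8%) and 1730 lower (28.9%) in old members. TMM lowered the old minus young difference by 0.68 on the log2 scale and turned this split into 670 and 2425. The members of either age could admit a gene, so few old UMIs, at 32.5 CPM each, both admitted it and made it higher. With a minimum of 10 UMIs over both sums in place of that filter, 621 of 3846 genes were higher and 1048 lower. The counts over the 5985 genes are therefore not read as a result. Among 261 genes with at least 100 UMIs over both sums, 12 were higher (4.6%) and 89 lower (34.1%), and the named genes were taken from these. Young members held most of these UMIs, so the minimum admits genes low in old members more readily than genes high in them, and the lean to lower genes is not read as a result.

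Among the genes highest in old members were Ccn2, Luc7l2, Zeb2, Mt1, Fosb, Cald1, mt-Nd3, Ebf1, Mycbp2, Cyp1b1 and Nfib. Ccn2, a matricellular growth factor, was at 488 CPM in young and 1787 in old members, a log2 difference of 1.86 (plain interval 1.36 to 2.38), beside 0.36 in other barcodes and 0.51 in the Cxcl14 arm. Zeb2, a transcriptional repressor, was at 1042 and 2794 CPM (1.42, interval 1.04 to 1.80), beside 0.03 and 0.02. Fosb, an immediate-early gene, differed by 1.19 and Mt1, a metal-binding stress protein, by 1.32. Under TMM the differences of these 11 genes ran from 0.35 to 1.19, and without the mixed members from 0.85 to 1.69. In the Grem1 arm Zeb2 was at 1078 and 1411 CPM and mt-Nd3 at 261 and 1106, also higher in the old. Ccn2 was lower in the old there, at 710 and 343 CPM.

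The 12 lowest were S100a9, S100a8, Prg4, Bglap2, Rhoa, Rpl10, Cd9, Cox6c, Sem1, Actg1, Rps23 and Rps14. The first 4 of them turned on the mixed young members. Without these, S100a9 went from -4.76 to 2.95, S100a8 from -4.09 to 4.28 and Bglap2 from -3.58 to 3.81, all reversed, and Prg4 from -3.94 to -1.87. Old members held 6, 7, 2 and 1 UMIs of these 4 genes. The other 8 ran from -3.34 to -2.18 without them. Rhoa, a GTPase of the cytoskeleton, had 126 UMIs in young and 2 in old members, or 698 and 65.0 CPM (-3.33, interval -6.49 to -1.54), beside -0.22 in other barcodes. Rps23, a protein of the small ribosomal subunit, was at 1502 and 292 CPM (-2.34), beside -0.06. In the Grem1 arm Rhoa was at 603 and 267 CPM and Rps23 at 1206 and 381, so their lower old levels were not particular to members. Among the 8 genes not tied to the mixed members, Sem1 went the other way in that arm, at 409 and 534 CPM. Of 69 cytosolic ribosomal protein genes with 100 UMIs, 35 were at least 2-fold lower in old members and 0 higher. Over all 261 genes with 100 UMIs, these included, 34.1% were lower and 4.6% higher, and the median was -0.68.

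**Figure D4:**
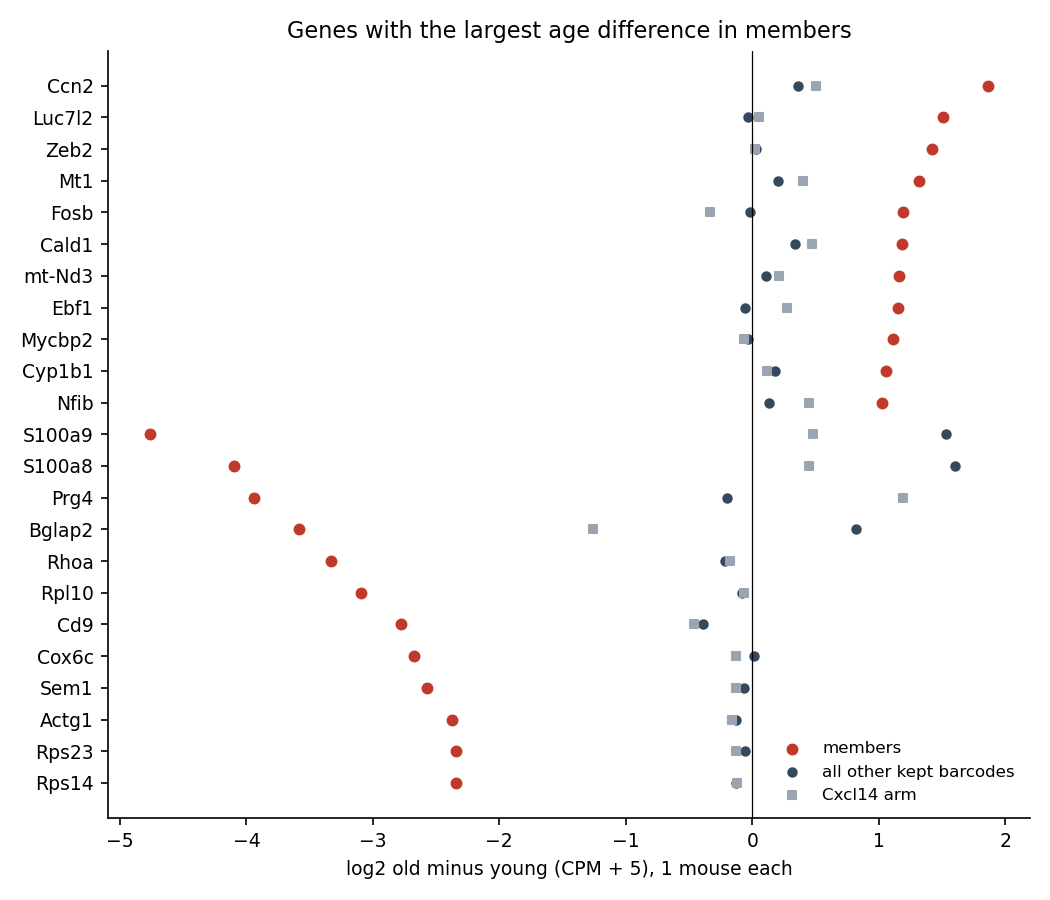
Log2 difference, old minus young, of CPM with 5 added (1 mouse each) for 11 of the highest and the 12 lowest genes in members, with the same difference in all other kept barcodes and in the Cxcl14 arm. Members run from 1.03 to 1.86 for the upper genes and from -4.76 to -2.34 for the lower ones, and S100a8, S100a9 and Bglap2 reverse without the 7 mixed members.

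Of 77 listed genes with 100 UMIs, Ebf1, Fosb, Mt1 and Nfib were at least 2-fold higher in old members (5.19%) and 19 lower (24.7%), beside 4.6% and 34.1% of all such genes. The 19 include S100a8, S100a9, Bglap2 and Fn1, which turn to 4.28, 2.95, 3.81 and 0.22 without the mixed members. Ibsp differed by -2.03 (interval -2.42 to -1.66), beside -0.03 in other barcodes and -0.58 in the Cxcl14 arm, and Hp by -1.95, beside -0.53 and -0.66. The ferritin chains Fth1 and Ftl1, which store iron, differed by -1.75 and -1.48, beside -0.17 and -0.07 in other barcodes. The class I chain H2-D1 and its partner B2m differed by -1.12 and -1.21, beside 0.03 and 0.17. Each of these genes was lower in old members by more than in the other barcodes, a difference that was not tested. The lower ribosomal share and the higher Malat1 and mitochondrial shares of old members moved with these differences, and their part was not tested.

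Of 12 blood-forming niche factors tested between ages, 3 were at least 2-fold higher and 1 lower in old members. Over all genes tested these shares were 22.8% and 28.9%, so the counts are not read as a result about the factors. Kitl differed by 0.39 (plain interval -0.01 to 0.79), a difference not detectable at this depth, which TMM turned to -0.28. Esm1 differed by 0.90 (0.38 to 1.40; 0.22 under TMM), beside 0.74 in other barcodes and 0.68 in the Cxcl14 arm. For the genes the rule used, the values are a description: Lepr differed by 0.34 (-0.33 under TMM) and Cxcl12 by -0.54 (-1.22 under TMM). Cdkn1a, a cell cycle inhibitor, had 45 UMIs in 13 young members (249 CPM) and 0 in old ones, where the floor is 97.5 CPM.

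Among themselves, members varied most in Gm42418, Igfbp5, Fos, Egr1, Ibsp, Gm26917, Malat1, Fosb, Dnaja1, mt-Atp6, Cxcl12, Hsp90aa1, mt-Cytb, Ccn1 and Hspa1b, by the smaller of the libraries' variances over the mean at 2000 UMIs per cell. In the young library alone the ratio was 172 for S100a9 and 130.3 for S100a8, above the 89.6 of Gm42418. It was 9.37 and 16.8 in young and old members for Igfbp5, an IGF binding protein, and 7.41 and 10.5 for Ibsp, whose UMIs per member ran from 0 to 112 in the young and 0 to 21 in the old. For Malat1 it was 55.3 and 6.90, and its share ran from 0 to 24.1% of UMIs in young members. Fos, Egr1 and Fosb are immediate-early genes, and Fos had UMIs in 28 young and 7 old members and Egr1 in 29 and 8. Dnaja1, Hsp90aa1 and Hspa1b are chaperones of the heat shock response.

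CD24, a surface glycoprotein, was read by the antibody, which the rule did not use. Its count had a median of 81 in young members (quartiles 57.2 and 141) and 83 in old ones (54.8 and 127.5). Medians were 91 and 87 in the Cxcl14 arm, 93 and 95 in other kept barcodes and 67 and 46 in the 41 megakaryocyte-like barcodes of each library (at least 10 Pf4 and 2 Itga2b UMIs). The quartiles of members spanned the medians of the arm and of the other barcodes. Per 1000 RNA UMIs the medians were 25.5 and 37.7 in members, 14.8 and 9.77 in the arm and 24.3 and 34.1 in its shallow barcodes. Counts over 300 were found in 2 of 50 young and 1 of 12 old members, against 5.87% and 5.32% of the arm. Its RNA, Cd24a, had 4 UMIs in 2 young members and 0 in old ones.

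**Figure D5:**
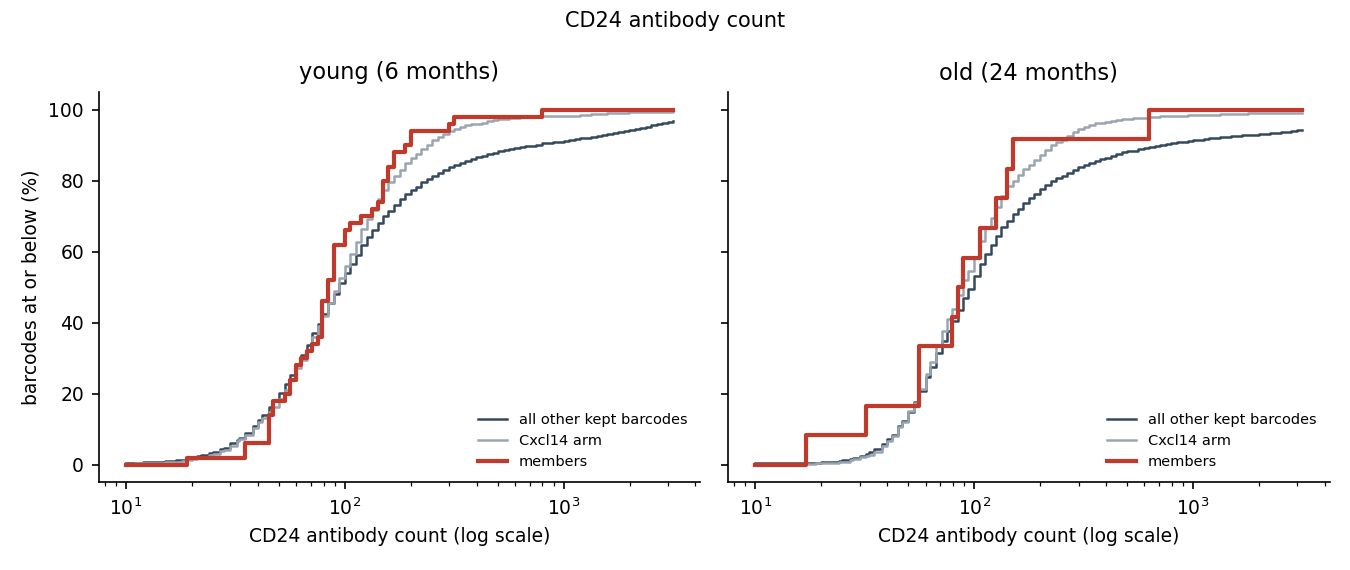
Percent of barcodes at or below each CD24 antibody count (log scale) in members, the Cxcl14 arm and all other kept barcodes of the young and old library. The curve of members follows the Cxcl14 arm, with medians of 81 and 83, while the other barcodes have a longer upper tail.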

How the data were processed

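1 young and 1 old mouse gave 1 library each, read as RNA and as an antibody tag. Per the file headers, the deposited counts are raw UMI counts per gene and barcode written by Cell Ranger 6.1.1, aligned to mm10, and the submitters' processing notes also name Seurat 4.0 and R 4.0.3. The authors filtered and clustered cells afterwards, and here their matrices were filtered anew at 200 genes and 20% mitochondrial UMIs. Members and all 33 gene lists were chosen with earlier results of these data known.

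Counts were summed over the barcodes of a group and scaled to 1000000 UMIs (CPM), and differences were taken as log2 of CPM with 5 CPM added, which understates the change of low genes. A plain interval is the exact interval of the ratio of the summed counts, with nothing added. Genes were tested for fold, not for significance, where at least 10% of either group held a UMI. Named genes were the 15 highest and 8 lowest against other barcodes, by the smaller difference of the libraries, the 8 highest and lowest against each arm, the 12 highest and lowest between ages with at least 100 UMIs, the 15 most variable by the smaller variance over mean of the libraries, and the listed genes, of which a few are not reported here. Bounds for genes at 0 use 3 UMIs over the group. Scrublet called 269 young (2.67%) and 57 old (1.02%) kept barcodes doublets, which were kept in the main results. Python 3.11.15, numpy 2.4.6, scipy 1.17.1, pandas 2.3.3, scanpy 1.11.5, matplotlib 3.10.9, R 4.3.3 and edgeR 4.0.16 (TMM factors only) were used. Folds of sums and Poisson intervals were tried on simulated Poisson counts. These had no spread between cells, so that trial cannot show coverage for the members, and the other intervals were not tried.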

Additional observations from a re-analysis of the deposited data

Results flagged for a closer look

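S100a8 and S100a9, subunits of a neutrophil protein, were flagged because members lay on opposite sides of the other kept barcodes in the 2 libraries. Young members differed from them by 2.17 (S100a8) and 2.19 (S100a9) on the log2 scale, and old members by -3.52 and -4.10. Without the 7 mixed young members the young differences were -6.20 and -5.52, on the same side as the old ones. The difference between the libraries was not tested, and 1 young member held 83.3% of the neutrophil-marker UMIs of young members.

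Outside the kept barcodes, 4 old barcodes met the UMI limits of the rule but were removed for more than 20% mitochondrial UMIs, and no young barcode was. They were flagged because they lie in data that no comparison used.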

How the results depend on the processing

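The main values were member shares of 0.497% (young) and 0.214% (old), CD24 antibody medians of 81 and 83, summed Kitl, Kng1 and Esm1 levels of 2649.8 and 3833 CPM, 21 genes higher and 205 lower against other barcodes, and 1365 higher and 1730 lower in old members. Of 106 alternative values, 67 stayed within the main value's 95% interval or 1.5 times the main count and 39 moved. The cause was not tested.

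Stricter limits of 4, 4 and 20 UMIs gave shares of 0.219% and 0.0535%, a young level of 3402 CPM, and 39 genes higher and 610 lower. Looser limits of 1, 1 and 5 UMIs gave shares of 1.11% and 1.19%, levels of 1276 and 852 CPM, 0 genes higher and 11 lower against other barcodes, and 219 higher and 319 lower between ages. Applying the rule after thinning to 5000 UMIs gave a young share of 0.328%, a young antibody median of 105, levels of 1832 and 2870.2 CPM, 8 genes higher and 64 lower, and 2294 higher between ages. A mitochondrial limit of 10% gave 2333 genes higher between ages. The mean of each cell's CPM gave 5 genes higher than in other barcodes. TMM factors gave an old level of 2474 CPM, 3 genes higher than in other barcodes and 670 higher between ages. Adding 1 CPM gave 37 genes higher and 360 lower, and adding 20 CPM gave 6 and 50. With no detection filter 308 genes were lower than in other barcodes, and 621 were higher and 1048 lower between ages. Per 1000 RNA UMIs the antibody medians were 25.5 and 37.7.

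Another 3 alternatives were chosen after seeing the data. Without the 7 mixed members 313 genes were lower than in other barcodes, without the 2 old members with a shared barcode 2230 were higher between ages, and without members under 2% ribosomal protein UMIs the old share was 0.107%, the old level 2565 CPM, and 12 genes were higher. Leaving out Scrublet doublets moved none of the 10 results. No paired analysis was possible because each age had 1 sample. The old library gave 12 members and 30784 UMIs, so that genes under 97.5 CPM were at or below its floor.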
